A study of Mus musculus with 24 samples.

Results

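Wdfy1, Manba, Banp and Adipor2 were followed mouse by mouse in RNA from mouse hippocampus. They were chosen by name, from earlier results of the same data, as genes whose level seemed to change in steps between groups of mice, and they are 4 of the 51733 genes in the deposited count table. Because their levels between mice chose them, those levels are given as a description without a test. Each was 1 row of the table, which spells them WDFY1, MANBA, BANP and ADIPOR2: Wdfy1 (ENSMUST00000113512), Manba (ENSMUST00000029814), Banp (ENSMUST00000170857) and Adipor2 (ENSMUST00000032272). In the RefSeq gene order of the mouse assembly GRCm38.p6 they lie on chromosomes 1, 3, 8 and 6.

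The study asked how phosphorylation of the translation factor eIF2α in given classes of neurons bears on memory. All 12 mice were adult C57BL/6 males aged 2 to 3 months and carried Cre recombinase under the CaMKIIα promoter, which is active in excitatory forebrain neurons, and the RiboTag system, in which a tagged ribosomal protein lets the ribosomes of Cre-expressing cells be pulled down with their RNA. Conditional knock-in mice (cKI) were eIF2αA/A;fTg+ with Cre: both eIF2α alleles lacked the phosphorylation site, and a floxed eIF2α transgene covered the loss except where Cre acted. Control mice were labelled Standard CaMKIIα-Cre+; whether they carried the floxed transgene is not stated. Within each genotype 3 mice were naive and 3 had been fear conditioned 1 h earlier, and the labels describe a weak and a strong training protocol without saying which was used here. Both hippocampi of a mouse were pooled, and each mouse gave 1 input library, from lysate set aside, and 1 from the RNA pulled down (immunoprecipitate), so there were 24 libraries in 8 groups of 3. The knock-in is limited to cells that express Cre, whereas the inputs hold RNA of every cell type.

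Depth was even, with 28.8 to 37.7 M counts in an input and 30.6 to 43.5 M counts in an immunoprecipitate. All 6 excitatory neuron markers and all 6 hippocampal markers looked for were detected, and their summed level was higher in every immunoprecipitate (9548 to 10867 CPM for the excitatory markers) than in any input (4534 to 5429 CPM). CPM here are counts scaled to a common library total, with library totals adjusted by the TMM method. The immunoprecipitates also held glial RNA at a lower level, with 6 astrocyte markers summing to 495 CPM in the lowest immunoprecipitate and 3052 CPM in the lowest input. Eif2s1, which encodes eIF2α, had 29.9 to 33.4 CPM in control inputs and 35.1 to 40.8 CPM in cKI inputs; counts per gene do not separate the allele without the phosphorylation site from the normal one, so this checks no label. The naive control input of replicate 2 lay farthest from its group over all genes, with a median absolute log2 deviation of 0.182 against 0.0584 to 0.117 in the other inputs, and the naive cKI immunoprecipitate of replicate 2 did so among immunoprecipitates (0.202 against 0.0866 to 0.168). The run string in each sample's label holds a number taken here as the sequencing lane, although nothing states that it is one. By that number, lanes held the cKI inputs and naive control inputs 1 and 2 (lane 4), the naive control input 3 and the conditioned control inputs (lane 5), the naive cKI and first conditioned cKI immunoprecipitates (lane 5), and all other immunoprecipitates (lane 6).

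The 4 proteins act in different places in the cell. Wdfy1 binds phosphatidylinositol 3-phosphate on early endosomes and helps to bring the adaptor Trif to the Toll-like receptors Tlr3 and Tlr4. Manba is the lysosomal beta-mannosidase, which removes the last beta-linked mannose when N-linked glycans are broken down, and its loss causes the storage disease beta-mannosidosis. Banp, also called Smar1, is a nuclear protein that binds matrix attachment regions and an unmethylated CGCG-containing element at CpG island promoters. Adipor2 is a receptor of the hormone adiponectin, in the same protein family as Adipor1 and the membrane progestin receptors, and signals through AMP-activated kinase (AMPK) and Ppara.

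RefSeq promoter sequence was given for Manba and Adipor2. The 250 bases before the annotated start are shown because Manba had the largest step in immunoprecipitates and Adipor2's naive controls stood apart in inputs. CG dinucleotides, the sites of DNA methylation and part of the element that Banp binds, are in capitals. Both are in GRCm38.p6, 5′ to 3′ on the gene's own strand; Manba is at chr3:135485361-135485610 on the plus strand and Adipor2 at chr6:119388735-119388984 on the minus strand.
Manba: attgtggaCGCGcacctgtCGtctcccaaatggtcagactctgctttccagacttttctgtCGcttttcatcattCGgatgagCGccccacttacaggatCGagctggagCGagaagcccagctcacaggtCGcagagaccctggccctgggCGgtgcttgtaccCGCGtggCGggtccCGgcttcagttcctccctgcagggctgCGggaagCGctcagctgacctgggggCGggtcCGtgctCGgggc
Adipor2: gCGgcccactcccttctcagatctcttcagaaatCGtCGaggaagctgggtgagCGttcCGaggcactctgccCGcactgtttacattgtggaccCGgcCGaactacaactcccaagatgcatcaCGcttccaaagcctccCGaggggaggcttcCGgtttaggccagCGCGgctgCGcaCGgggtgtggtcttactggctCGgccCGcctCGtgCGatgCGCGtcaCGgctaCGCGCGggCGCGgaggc
Manba's window held 19 CG dinucleotides at 63.6% G and C, and Adipor2's held 27 at 64.8%. The median over 32851 promoter entries was 6, and 19.7% of the entries had at least as many as Manba and 8.56% at least as many as Adipor2. The letters CTCGCGAG, the core of the element bound by Banp, which read the same on both strands, occurred in neither window. They occurred in 302 entries (0.919%).

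Wdfy1, the endosomal adaptor, lay at 1 of a pair of well separated levels in every mouse, in both fractions. In inputs the naive controls had 56.8, 54.9 and 57.8 CPM (replicates 1, 2 and 3), and the conditioned controls 36.1, 37.3 and 36.1 CPM. The naive cKI mice had 55.3, 36.9 and 53.9 CPM, and the conditioned cKI mice 36.0, 37.2 and 37.3 CPM. The higher level thus held all naive controls and naive cKI mice 1 and 3; the lower level held all conditioned mice of both genotypes and naive cKI mouse 2, which fell among the conditioned mice and away from its own group. Whether the label of this mouse holds was not tested, and its value enters every naive cKI mean and SD given here.

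The immunoprecipitates put the same 5 mice above the same 7. Wdfy1 had 48.9, 47.3 and 46.2 CPM in naive controls and 28.5, 29.3 and 28.3 CPM in conditioned controls. It had 46.9, 28.9 and 47.6 CPM in naive cKI mice and 30.5, 26.0 and 30.2 CPM in conditioned cKI mice. No mouse lay between 37.3 and 53.9 CPM in inputs or between 30.5 and 46.2 CPM in immunoprecipitates, a ratio across the empty interval of 1.44 and 1.52. The next largest interval between neighbouring mice was 0.04 (log2) in inputs and 0.12 in immunoprecipitates, against 0.53 and 0.60 for the step. Counting error was 2.06 to 3.62% of a value over these libraries.

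Both levels of Wdfy1 were present within each lane, as far as that number marks one, and the part of lane was not tested. On lane 4 the inputs of naive cKI mouse 2 and the conditioned cKI mice were low (36.0 to 37.3 CPM) and the other 4 were high (53.9 to 56.8 CPM), and on lane 5 the naive control input 3 (57.8 CPM) stood above the conditioned control inputs (36.1 to 37.3 CPM). The immunoprecipitates on lane 6 likewise held naive controls at 46.2 CPM or more and conditioned mice at 30.2 CPM or less. Because of cKI mouse 2, the group mean hid the pattern: naive cKI mice averaged 48.7 ± 10.3 CPM in inputs (SD, n = 3) and 41.1 ± 10.6 CPM in immunoprecipitates, while the other 6 groups had an SD of 0.554 to 2.54 CPM. That mouse's immunoprecipitate was also the one farthest from its group over all genes; its part in the low value was not tested.

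**Figure D1:**
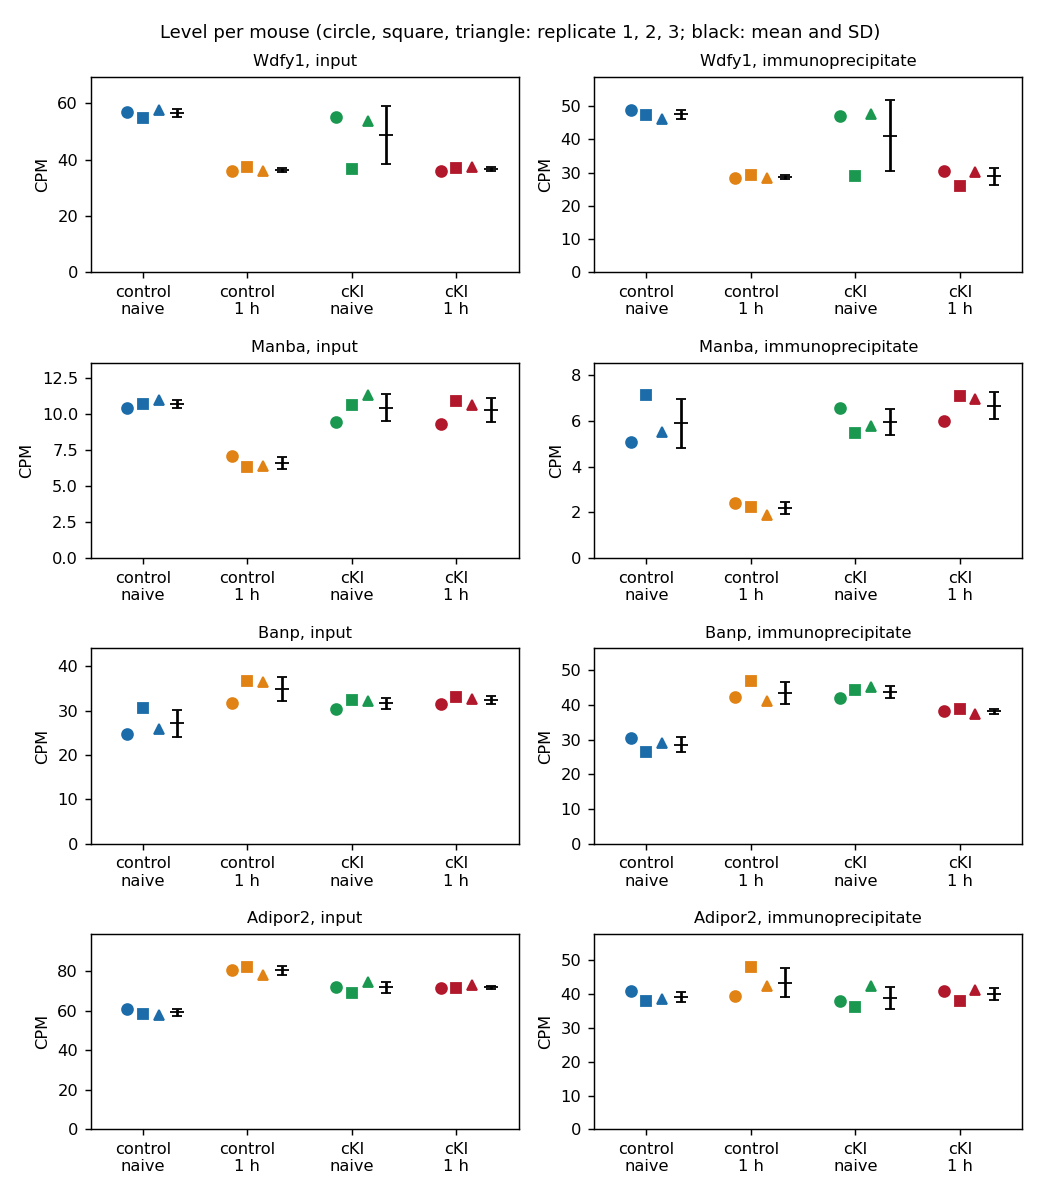
Level of each gene (CPM, vertical axis) in every mouse, by genotype and training state, with inputs and immunoprecipitates drawn apart; symbols are replicates 1, 2 and 3 (circle, square, triangle) and black bars give mean and SD (n = 3). Wdfy1 splits into 5 higher and 7 lower mice in both fractions, and Manba is low in the 3 conditioned controls. Banp is low in the naive control immunoprecipitates, and Adipor2 is low in the naive controls in inputs alone.

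Manba, the lysosomal beta-mannosidase, was low in the conditioned controls and in no other group. In inputs it had 10.4, 10.7 and 11.0 CPM in naive controls and 7.09, 6.35 and 6.41 CPM in conditioned controls. The naive cKI mice had 9.46, 10.6 and 11.3 CPM and the conditioned cKI mice 9.34, 10.9 and 10.6 CPM. The 9 other inputs lay at 9.34 CPM or more; conditioned controls lay below all other mice for 0.924% of genes in inputs, 0.865% in immunoprecipitates and 0.125% in both. None of the 9 overlapped the conditioned controls, whose mean of 6.62 ± 0.408 CPM (SD, n = 3) was 0.619 times that of the naive controls.

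In immunoprecipitates the same split was wider. Naive controls had 5.07, 7.13 and 5.51 CPM and conditioned controls 2.41, 2.24 and 1.89 CPM. Naive cKI mice had 6.58, 5.48 and 5.79 CPM and conditioned cKI mice 6.00, 7.09 and 6.96 CPM. The conditioned control mean, 2.18 ± 0.261 CPM, was 0.369 times the naive control mean of 5.90 ± 1.09 CPM, and the empty interval ran from 2.41 to 5.07 CPM. These 3 libraries gave 77, 68 and 51 counts, so counting error reached 14.0% of a value, well inside the interval.

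By lane number, the libraries on either side of Manba's split were as follows, and the part of lane was not tested. Naive control input 3, the only other input on the lane of the conditioned control inputs, had 11.0 CPM. All control immunoprecipitates shared lane 6 with conditioned cKI mice 2 and 3, which had 7.09 and 6.96 CPM. Summed astrocyte markers in the conditioned control inputs (3519 to 3684 CPM) and microglial markers (275 to 325 CPM) lay within the ranges of the other groups (3052 to 3720 CPM and 281 to 362 CPM) apart from the lowest microglial value. Oligodendrocyte and endothelial sums also lay within those ranges. The highest inhibitory neuron sum (822 CPM) and choroid plexus sum (355 CPM) lay above every other group (at most 773 and 280 CPM). The part of cell types in Manba's split was not tested in either fraction. In whole tissue, fewer cells of a type and less RNA per cell cannot be told apart.

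Banp, the nuclear CGCG-binding protein, moved the other way between naive and conditioned controls. In immunoprecipitates it had 30.4, 26.4 and 29.0 CPM in naive controls and 42.2, 46.9 and 41.1 CPM in conditioned controls. Naive cKI mice had 41.9, 44.2 and 45.2 CPM and conditioned cKI mice 38.3, 38.9 and 37.5 CPM. The naive controls lay below the other 9 mice, across an interval of 0.30 (log2), as for 1.66% of genes measured in both fractions. Their mean of 28.6 ± 2.04 CPM was 0.658 times that of the conditioned controls. Among the rest, the conditioned cKI mice lay under all 6 of the others without overlap, 0.08 apart. By lane number, naive cKI immunoprecipitates were all on lane 5 and control immunoprecipitates all on lane 6, and the part of lane was not tested.

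The inputs did not repeat this split. Banp had 24.8, 30.7 and 25.9 CPM in naive controls and 31.8, 36.7 and 36.4 CPM in conditioned controls. It had 30.3, 32.5 and 32.3 CPM in naive cKI mice and 31.5, 33.2 and 32.7 CPM in conditioned cKI mice. Naive controls 1 and 3 were the lowest inputs, but naive control 2 lay above naive cKI mouse 1. Input replicate 2 of the naive controls is the library farthest from its group; with that mouse left out, the remaining naive controls lay below all others in both fractions, by 0.22 at the smaller interval.

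Adipor2, the adiponectin receptor, was lowest in the naive controls in inputs and highest in the conditioned controls. It had 61.0, 58.6 and 57.9 CPM in naive controls and 80.8, 82.3 and 78.1 CPM in conditioned controls. The cKI mice lay between these, with 72.0, 69.2 and 74.7 CPM when naive and 71.3, 71.3 and 72.9 CPM when conditioned. Naive controls, all cKI mice and conditioned controls did not overlap, while the naive and conditioned cKI mice did. Naive controls lay below the other 9 inputs for 1.50% of genes. The interval below the cKI mice was 0.18 and that above them 0.06 on the log2 scale. An interval of 0.06 also lay within the naive controls, between 58.6 and 61.0 CPM. The upper interval was thus no wider than that within a group, and only the naive controls stood apart. Of 15153 genes measured in both fractions, 18 (0.119%) had naive controls, all cKI mice and conditioned controls without overlap, in that order or the reverse.

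In immunoprecipitates the levels of Adipor2 ran together. Naive controls had 40.7, 38.0 and 38.6 CPM and conditioned controls 39.5, 48.0 and 42.3 CPM. Naive cKI mice had 37.9, 36.2 and 42.4 CPM and conditioned cKI mice 40.9, 37.9 and 41.0 CPM. All groups overlapped, and the highest value, conditioned control 2, stood 0.18 (log2) above the next. The conditioned control mean was 1.11 times the naive control mean here, against 1.36 times in inputs.

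Further measures were high in the naive control inputs, where Adipor2 was lowest throughout and Banp was lowest in replicates 1 and 3. The 6 oligodendrocyte markers, none of them at 0, summed to 4963 to 5373 CPM in naive control inputs, to 3759 to 4313 CPM in conditioned controls, to 3509 to 4103 CPM in naive cKI mice and to 3347 to 3494 CPM in conditioned cKI mice. In immunoprecipitates the naive controls (366 to 377 CPM) overlapped the conditioned controls (269 to 370 CPM). Endothelial markers summed to 143 to 174 CPM in naive control inputs and 130 to 142 CPM in conditioned controls. They summed to 122 to 143 CPM in naive and 110 to 129 CPM in conditioned cKI inputs. Naive control immunoprecipitates spanned the range of all mice for this sum (15.6 to 20.2 CPM). The part of either set of transcripts in the levels of Adipor2 and Banp was not tested.

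Set side by side, naive and conditioned controls did not overlap for 4 of the 4 genes in inputs, where 17.1% of all genes measured in both fractions did not overlap, and for 3 of 4 in immunoprecipitates (19.1% of all genes). Naive and conditioned cKI mice did not overlap for 0 of 4 in inputs (13.7%) and for 1 of 4, Banp, in immunoprecipitates (16.6%). The genes were chosen on these levels, so the counts carry no weight of their own.

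To ask whether a step was shared by both fractions of a mouse, the 12 mice were split into a higher and a lower set of at least 2 mice each, and the same split was required in inputs and immunoprecipitates. The size of a shared step is the smaller of the intervals between the sets in the 2 fractions, and a step was counted when it was above 0.25 on the log2 scale. Wdfy1 had a shared step of 0.53 and Manba one of 0.39, and 96 of 15153 genes (0.634%) had a shared step above the threshold. For Wdfy1, 34 genes (0.224%) had a step at least as large, and for Manba 49 (0.323%). Banp and Adipor2 had no split common to both fractions. By this measure a step common to both fractions was present for Wdfy1 and Manba alone. For Wdfy1 the step followed training state in 11 of 12 mice, with naive cKI mouse 2 as the exception. Since the genes were chosen on these levels, their steps and the shares of all genes are a description and lend the choice no support.

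**Figure D2:**
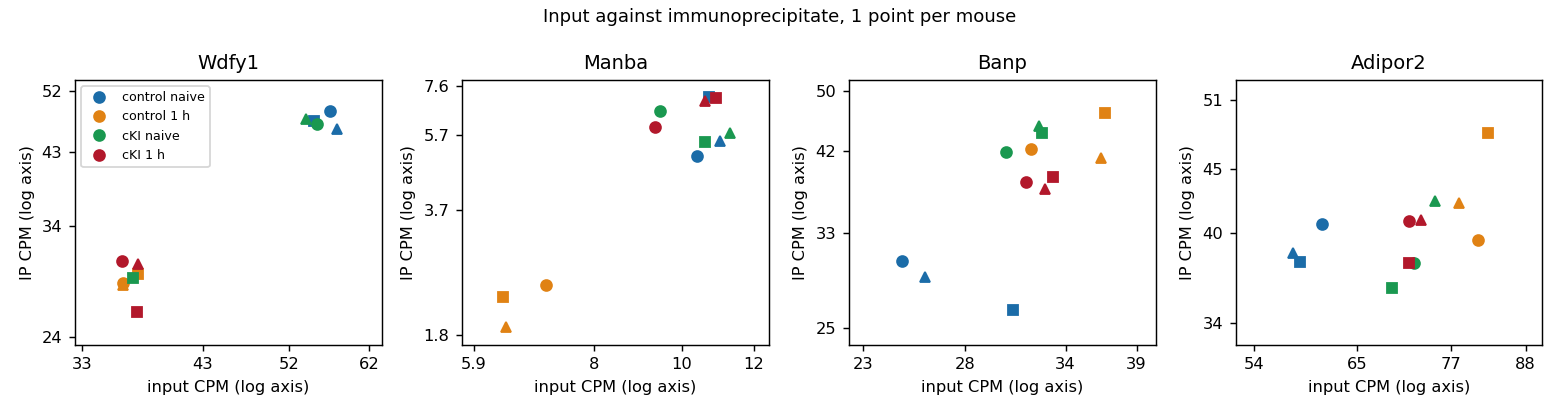
Input level against immunoprecipitate level of each gene (CPM, log axes), 1 point per mouse, coloured by genotype and training state. For Wdfy1 and Manba the mice form separate clouds along both axes, with ratios across the empty interval of 1.44 and 1.52 for Wdfy1 and 1.32 and 2.10 for Manba; for Banp and Adipor2 no such division runs along both axes.

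**Figure D3:**
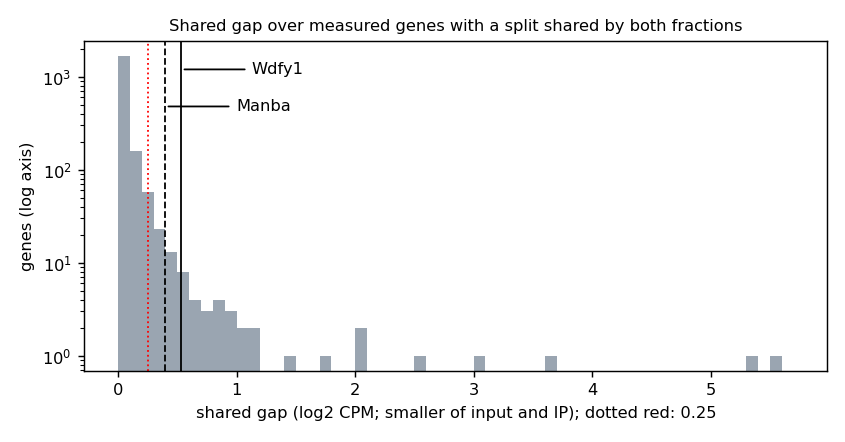
Size of the shared step (log2 CPM, horizontal axis) over genes with a split common to both fractions, with the number of genes on a log axis and the threshold of 0.25 dotted. Wdfy1 (0.53) and Manba (0.39) lie in the tail above the threshold, and Banp and Adipor2, with no common split, are not drawn.

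The splits of Wdfy1 and Manba were different, and few genes had either as their largest shared split. Zfp46, a zinc finger protein, was the one gene whose largest shared split was that of Wdfy1, and its step was 0.02. Genes with Wdfy1's split at a smaller interval than another split were not counted. Manba's split was the largest shared split of 12 other genes and, reversed, of 7, of any size. Counted also where another split was larger, 19 genes (0.125%), Manba included, had the conditioned controls below all other mice in both fractions. Only 2 of the 12 passed 0.25: Etnppl, which encodes an ethanolamine-phosphate lyase of astrocytes, at 0.56, and A730081D07Rik, a clone-named transcript named here after its values were seen, at 1.48.

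The comparison of immunoprecipitate with input did not enter the choice of the genes and was tested, with edgeR's quasi-likelihood test over all 24 libraries. All 4 genes passed, in a contrast in which 85.9% of 17453 genes passed, 42.8% higher and 43.1% lower in immunoprecipitates. Wdfy1 was lower by a log2 change of -0.30 (SE 0.07, edgeR adjusted p = 0.00051), in 12 of 12 mice. Manba was lower by a log2 change of -0.97 (SE 0.06, edgeR adjusted p = 5.8e-13), in 12 of 12 mice. Adipor2 was lower by -0.81 (SE 0.03, edgeR adjusted p = 1.8e-16), also in 12 of 12 mice, and Banp was higher by 0.27 (SE 0.04, edgeR adjusted p = 7.4e-07), in 11 of 12 mice. With lane as a covariate the call for Wdfy1 was lost (-0.25, edgeR adjusted p = 0.35), and fraction and lane overlapped on lane 5 alone.

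Mouse by mouse, the ratio of immunoprecipitate to input varied little for Wdfy1 and more for the others. Wdfy1's log2 ratio ran from -0.52 to -0.18 over all mice, and was -0.25 ± 0.06 in naive controls and -0.35 ± 0.01 in conditioned controls (SD, n = 3). Manba's was -1.61 ± 0.13 in conditioned controls and -0.87 ± 0.25, -0.82 ± 0.25 and -0.62 ± 0.01 in naive controls, naive cKI and conditioned cKI mice, so its low group was lower still in the pulled-down RNA. Adipor2's was -0.60 ± 0.02 in naive controls, where the input was low, and -0.90 to -0.85 as a mean elsewhere. Banp's ran from -0.22 in naive control 2 to 0.48 in a naive cKI mouse.

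The genes whose levels followed each member most closely were ranked by the smaller of Pearson's r over the 12 inputs and over the 12 immunoprecipitates. The mice fall into the same groups in every such comparison, so r is given as a description. For Wdfy1 the leading genes were Elmo2, a regulator of Rac (0.87 in inputs and 0.93 in immunoprecipitates), the linker histone H1f0 (0.83 and 0.84), Zfp46 (0.84 and 0.83), the kinase Cdk16 (0.82 and 0.87) and the RNA-binding protein Lsm14b (0.79 and 0.83). Elmo2 was higher in naive than in conditioned mice without an empty interval like Wdfy1's: in inputs it had 108, 105 and 109 CPM in naive controls, 98.3, 98.4 and 99.8 CPM in naive cKI mice, and 87.5 to 93.9 CPM in conditioned mice. Naive cKI mouse 2, low for Wdfy1, was level with its group for Elmo2 in inputs and lowest of its group in immunoprecipitates (133 against 163 and 160 CPM).

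For Manba the leading genes were Etnppl (0.90 and 0.91) and Dkk2, a secreted inhibitor of Wnt signalling (0.86 and 0.83), with Mcur1 and Cage1 also among them. Etnppl had 9.93, 10.2 and 9.92 CPM in conditioned control inputs and 17.4 to 23.8 CPM in the other 9. In immunoprecipitates it had 0.563, 0.789 and 0.557 CPM in conditioned controls, from 18, 24 and 15 counts, and 1.19 to 2.06 CPM elsewhere. Dkk2 was near the limit of detection, with 3, 7 and 6 counts in the conditioned control immunoprecipitates and 11 to 38 in the others.

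For Banp the leading genes were Manf, a secreted trophic factor (0.90 and 0.87), the transcription factor Xbp1 (0.91 and 0.82), the disulfide isomerase Pdia4 (0.83 and 0.81), the derlin Derl2 (0.86 and 0.81) and Sfrp4 (0.79 and 0.85). Manf had 53.4, 51.0 and 53.3 CPM in naive control immunoprecipitates and 59.5 to 85.1 CPM in the other 9. Its inputs overlapped in the way Banp's did, with 48.6 CPM in naive control 2 against 46.5 CPM in naive cKI mouse 1. For Adipor2 they were Mtmr4, a lipid phosphatase (0.86 and 0.82), Irs2, an insulin receptor substrate (0.82 and 0.80), Ss18l1, Zfp334 and Diaph2. Irs2 inputs had 95.0, 88.4 and 100 CPM in naive controls and 113, 131 and 124 CPM in conditioned controls, and its cKI mice were split by training, at 102 to 108 CPM when naive and 116 to 122 CPM when conditioned.

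The members followed each other less closely than these genes. Banp and Adipor2 had r = 0.80 in inputs and 0.35 in immunoprecipitates, Wdfy1 and Manba 0.52 and 0.42, and Wdfy1 and Banp -0.73 and -0.54. Manba and Adipor2 had -0.69 and -0.58, Manba and Banp -0.56 and -0.41, and Wdfy1 and Adipor2 -0.69 and -0.14. Genes most opposite to Wdfy1 were Ssc5d, Srsf7 and Ak4 (-0.85 to -0.78). Those most opposite to Manba were Gcnt2, Zbtb40 and Swt1 (-0.82 to -0.77), to Banp Slc24a2, Ccdc177 and Fbxo38 (-0.81 to -0.76), and to Adipor2 Bpgm, Haus4 and Mlycd (-0.81 to -0.76).

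**Figure D4:**
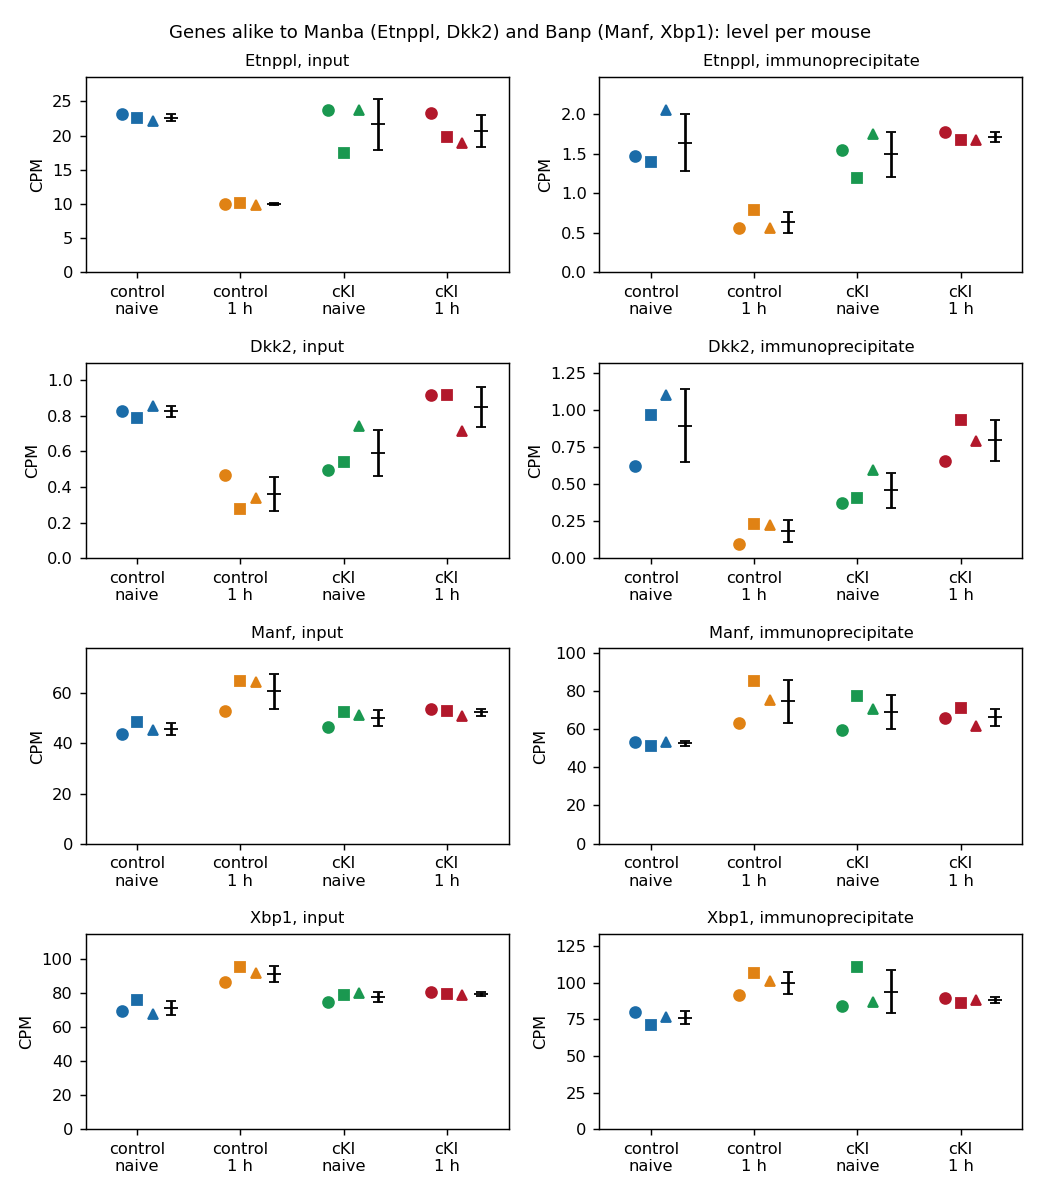
Level (CPM) in every mouse of Etnppl and Dkk2, which followed Manba, and of Manf and Xbp1, which followed Banp, by genotype and training state; black bars give mean and SD (n = 3). Etnppl has its 3 conditioned controls below every other mouse in both fractions, with 9.92 to 10.2 CPM against 17.4 to 23.8 CPM in inputs.

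Position was compared next, with the 5 measured genes on each side of a member in RefSeq gene order, clone-named genes left out. Few neighbours passed the edgeR test at the adjusted threshold. In the genotype contrasts (mean of both cKI groups minus mean of both control groups), 1 of the 40 neighbours passed in inputs, where 3.15% of genes passed, and 1 in immunoprecipitates (1.69%). At an unadjusted p under 0.05 there were 12 in inputs and 7 in immunoprecipitates, where 20.5% and 18.5% of all genes had such a p. Of the 12 in inputs, 6 were among the 10 neighbours of Wdfy1. Emcn, an endothelial sialomucin near Manba, was lower in cKI inputs by a log2 change of -0.53 (SE 0.13, edgeR adjusted p = 0.044), and Rnf166, a ubiquitin ligase near Banp, was higher in cKI immunoprecipitates by 0.22 (SE 0.05, edgeR adjusted p = 0.0498). Each of these calls was lost in most single omissions: Emcn held only without conditioned cKI input 3 or naive control inputs 1 or 2, Rnf166 only without naive cKI immunoprecipitate 1 or conditioned control immunoprecipitate 1.

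For training (mean of both 1 h groups minus mean of both naive groups) edgeR called 0 of the 40 neighbours in inputs, where 0.818% of genes passed, and 0 in immunoprecipitates (0.387%). At an unadjusted p under 0.05 there were 6 and 4, where 12.2% and 13.0% of all genes had such a p, and DESeq2 called 0 and 0. None of the 10 neighbours of Wdfy1 or of Manba had its split as the largest shared split, and none had a shared step above 0.25. Nfkb1, next to Manba and a target of Toll-like receptor signalling, had 18.5 to 18.6 CPM in conditioned control inputs and 18.1 to 20.9 CPM in the others.

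A wider window of 50 measured genes on each side, with the contrast of conditioned against naive controls, was added after the data were seen, because Etnppl and Dkk2 lie near Manba, 23 and 15 measured genes away. In inputs 7 of the 100 genes around Manba passed, all 7 lower in conditioned controls, where 0.737% of all genes passed and 0.325% were lower. Etnppl had a log2 change of -1.15 (SE 0.11, edgeR adjusted p = 0.00019). The others were Tacr3, a neurokinin receptor (-1.02), the adaptor Dapp1 (-0.84), Ddit4l, an inhibitor of mTOR signalling (-0.76), the dehydrogenase Adh5 (-0.40), Papss1, which makes the sulfate donor of sulfation (-0.25), and Cisd2 (-0.21), with edgeR adjusted p-values from 0.016 to 0.03. DESeq2 called 11 of the 100, and 26 had an unadjusted p under 0.05, as 11.7% of all genes did. Etnppl is among the genes that prompted the window, so these counts are a description and are not read against the shares of all genes.

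In immunoprecipitates 2 of the 100 genes around Manba passed in this contrast, against 0.328% of all genes. They were Etnppl (-1.35, SE 0.24, edgeR adjusted p = 0.038) and Dkk2 (-2.29, SE 0.38, edgeR adjusted p = 0.033), both lower in conditioned controls, as 0.171% of all genes were. These are the genes that prompted the window, so the count adds nothing to their own values. Dkk2 in inputs was -1.17 (edgeR adjusted p = 0.061), and Casp6, which had Manba's split, was -0.79 (edgeR adjusted p = 0.053). Col25a1, next to Etnppl in this order, had the reverse split, with 36.6, 32.3 and 35.7 CPM in conditioned control inputs and 16.1 to 27.6 CPM in the others, and did not pass (0.67, edgeR adjusted p = 0.11). With lane as a covariate 2 of the 7 input calls held, Etnppl (edgeR adjusted p = 0.012) and Dapp1 (edgeR adjusted p = 0.031).

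The input count around Manba rested in part on single libraries. It was 4, 3 and 1 without conditioned control 1, 2 or 3, 3 without naive control 1 or 3, and at most 9 otherwise. Etnppl in inputs stayed past the threshold in all 12 omissions, with the highest edgeR adjusted p at 0.0031. In immunoprecipitates the count was 0 without any 1 of the 3 conditioned controls or without naive control 2 or 3, and 1 without naive control 1 or conditioned cKI mouse 1.

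Around the other members fewer genes passed in this contrast. Of all genes, 11.7% in inputs and 10.3% in immunoprecipitates had an unadjusted p under 0.05. In conditioned against naive controls edgeR called 0 of 100 genes around Wdfy1 in inputs (9 at an unadjusted p under 0.05, 2 by DESeq2). In immunoprecipitates it called 1, Sgpp2, a phosphatase of sphingosine 1-phosphate (-0.87, SE 0.16, edgeR adjusted p = 0.044). That call was lost without conditioned cKI mouse 1 or any 1 of the 6 control mice (up to 0.23). Around Banp it called 0 in inputs and 0 in immunoprecipitates (19 and 12 unadjusted, 0 and 1 by DESeq2). Around Adipor2 it called 0 and 0 (17 and 12 unadjusted, 1 and 3 by DESeq2). None of the genes most like or most opposite to Wdfy1 or Banp was on its chromosome. The difference between the windows was not tested. By genotype, edgeR called 11 of the 100 genes around Wdfy1 in inputs, 9 of them lower in cKI mice, and 6 in immunoprecipitates (DESeq2 called 18 and 9), where 3.15% and 1.69% of all genes passed. An unadjusted p under 0.05 was seen for 36 of these genes in inputs and 19 in immunoprecipitates, where 20.5% and 18.5% of all genes had such a p. These counts by genotype were looked at after the data were seen and were not tested.

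**Figure D5:**
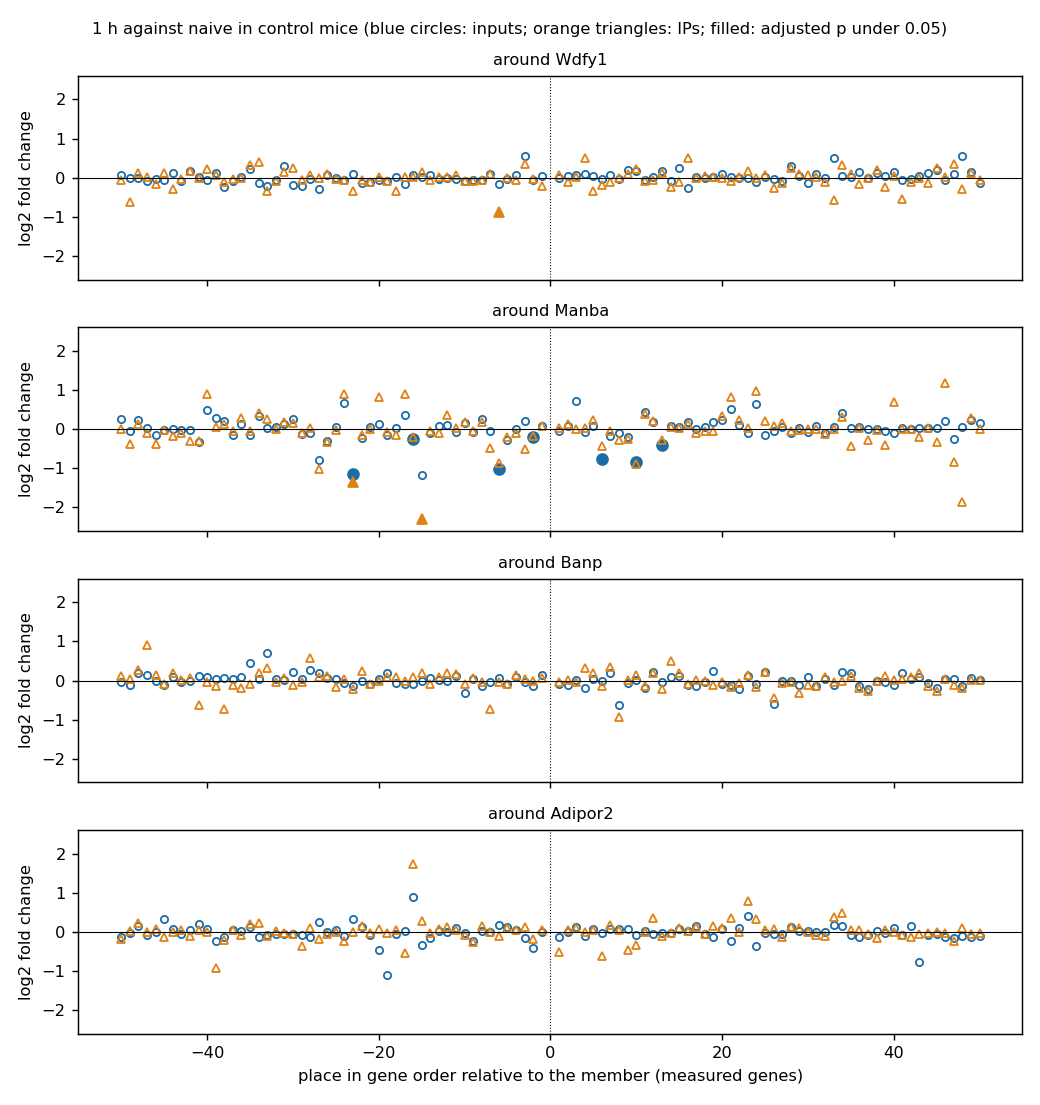
Log2 change of conditioned against naive controls (vertical axis) for the 50 measured genes on each side of each member, in RefSeq gene order (horizontal axis), in inputs and immunoprecipitates; circles are inputs, triangles immunoprecipitates, and filled points passed the edgeR test at an adjusted p of 0.05. Points past the axis limits are counted in the panel. Around Manba 7 input genes and 2 immunoprecipitate genes passed, all lower in conditioned controls, and around the other members 0 input genes did.

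Genes of the pathways in which the members act were taken from lists, with 79 genes tested in inputs and 76 in immunoprecipitates. In the training contrasts edgeR called 0 of them in inputs and 0 in immunoprecipitates. At an unadjusted p under 0.05 there were 15 and 11, beside 12.2% and 13.0% of all genes, and DESeq2 called 0 and 2. The genotype contrasts called 3 in inputs and 2 in immunoprecipitates, all in the Adipor2 list, where 3.15% and 1.69% of all genes were called. At an unadjusted p under 0.05 there were 16 and 10, beside 20.5% and 18.5% of all genes.

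Of 20 genes around Wdfy1 (17 of them tested in immunoprecipitates; its paralogs, Tlr3, Tlr4, Trif and the kinases and factors below them), 20 of Manba's lysosomal neighbours in function, which break down glycans and glycolipids, and 16 around Banp in p53 signalling and the nuclear matrix, edgeR called 0 by genotype or training in either fraction. Median log2 changes of these 3 lists in those contrasts lay between -0.05 and 0.09, against 0.00 for all genes. Man2b1, the lysosomal alpha-mannosidase, had 35.5 to 44.9 CPM in conditioned control inputs and 43.1 to 49.1 CPM in naive ones, which overlap, unlike Manba. Between fractions, 17 of the 20 Wdfy1 list genes were lower in immunoprecipitates and 2 higher, 11 and 5 of the 20 Manba list genes, and 4 and 12 of the 16 Banp list genes, where 43.1% of all genes were lower and 42.8% higher.

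In the Adipor2 list, 23 genes of adiponectin and AMPK signalling were tested. Paqr7, a membrane progestin receptor in Adipor2's family, was lower in cKI mice in inputs (-0.63, SE 0.06, edgeR adjusted p = 0.00042) and in immunoprecipitates (-0.56, SE 0.11, edgeR adjusted p = 0.037). Its inputs had 52.5 to 71.7 CPM in control mice and 36.4 to 49.0 CPM in cKI mice without overlap. Prkaa1, a catalytic subunit of AMPK (0.21, SE 0.05, edgeR adjusted p = 0.031), and Camkk2, a kinase that activates AMPK (0.16, SE 0.04, edgeR adjusted p = 0.041), were higher in cKI inputs. Ppargc1a, a coactivator of mitochondrial genes, was lower in cKI immunoprecipitates (-0.52, SE 0.08, edgeR adjusted p = 0.013).

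Adipor1, the other adiponectin receptor, did not share Adipor2's levels: inputs had 70.7 to 71.3 CPM in naive controls, 65.3 to 68.1 CPM in conditioned controls and 63.6 to 71.7 CPM in cKI mice. Paqr7 in inputs and Ppargc1a held in all 12 omissions. Prkaa1 held only without naive cKI input 3 or any 1 of the naive control inputs, Camkk2 only without a naive control input, and Paqr7 in immunoprecipitates only without naive cKI mouse 3, conditioned control 3 or naive control 1. With lane as a covariate these 5 calls were lost, with edgeR adjusted p-values from 0.062 to 0.6.

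Genes with the Banp element in their promoter were also counted. Of the genes tested in inputs, 228 held CTCGCGAG in a RefSeq promoter. Of these 2 passed by genotype (0.877%, against 3.37% of genes with a promoter entry without it) and 1 by training (0.439% against 0.795%). In immunoprecipitates 4 passed by genotype (1.83% against 1.73%) and 1 by training (0.459% against 0.378%). The letters are a description and not evidence of binding.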

How the data were processed

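RNA of 12 mice was measured in 24 libraries, made with a strand-specific poly(A) kit and sequenced as read pairs, per the labels' protocols. The authors deposited raw counts per gene; cutadapt, Bowtie and DESeq2 stand in the submitters' processing notes without their roles, and for the counting tool, genome build and strand setting the answer is "not given in the sources used here", so reads of overlapping or antisense genes cannot be told apart. Of the symbols, 47598 (92.0%) matched the name table. Each library was a separate mouse and fraction by its title.

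Counts were tested in R 4.3.3 with edgeR 4.0.16 (TMM, filterByExpr by group, robust quasi-likelihood, Benjamini-Hochberg over 17232 genes in inputs, 15238 in immunoprecipitates and 17453 in all libraries; threshold 0.05). Steps and likeness used log2 CPM with a prior count of 2. Alternatives were DESeq2 1.42.0, its size factors, no filter, lane as covariate, the replicate number or the mouse as block, and each library left out. The methods were tested on simulated data. Members and lists were chosen with earlier results of these data known. Named were the members, up to 6 called genes per list, 5 neighbours on each side, and the 5 most alike and 3 most opposite genes per member; an item that the rule chose is not reported here, and other names are marked as chosen later or come from the wider window. Casp6, Col25a1, Man2b1, Adipor1, Sgpp2 and the genes of that window were named after their values were seen. Promoters are from RefSeq, GRCm38.p6; Wdfy1 and Banp are not among them.

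Samples with the same replicate number deviated together little (mean correlation -0.03 in inputs, from -0.15 to 0.09, and 0.06 in immunoprecipitates, from -0.19 to 0.41), and the main fits did not pair mice by number. The input and immunoprecipitate of a mouse pair by the mouse number in the titles (mean correlation 0.15, from 0.01 to 0.43). Known pairs thus also correlated little, so this measure cannot exclude pairing by replicate number. Counting errors cover counting only.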

Additional observations from a re-analysis of the deposited data

Results flagged for a closer look

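Banp in immunoprecipitates differed between genotypes in its direction with training: the mean log2 difference of conditioned and naive mice was 0.60 in controls and -0.19 in cKI mice, 0.80 apart, and in each genotype the naive and conditioned mice did not overlap. Read the other way, the mean log2 difference of cKI and control mice was 0.62 when naive and -0.18 when conditioned, again 0.80 apart. Adipor2 in inputs showed the same kind of crossing, with a mean log2 difference of cKI and control mice of 0.28 when naive and -0.16 when conditioned, 0.44 apart, and no overlap in either state. These differences between groups were not tested, since the genes were chosen on these levels. By lane number, naive cKI immunoprecipitates were all on lane 5 and control immunoprecipitates all on lane 6. Conditioned cKI immunoprecipitate 1 was on lane 5 and 2 and 3 were on lane 6. Conditioned inputs were on lane 4 for cKI mice and lane 5 for controls. Genotype and lane thus cannot be told apart in naive immunoprecipitates or in conditioned inputs.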

How the results depend on the processing

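With the DESeq2 Wald test more genes passed: by genotype 951 in inputs (4 neighbours) and 779 in immunoprecipitates (4 pathway genes, 2 neighbours), by training 289 and 335 (2 pathway genes in immunoprecipitates), and in conditioned against naive controls 299 (11 near Manba) and 255 (4 near Manba), against 543, 258, 141, 59, 127 and 50 with edgeR. With lane as a covariate fewer passed: 18 in inputs (0 pathway genes, 0 neighbours) and 3 in immunoprecipitates (0 and 0) by genotype, 19 and 2 by training, 13 (2 near Manba) and 26 (1 near Manba) in controls, and 9764 between fractions, where Wdfy1 was -0.25 (edgeR adjusted p = 0.35, and at most 0.0034 in every other setting). Lane is partly confounded with genotype in both fractions (all cKI inputs on lane 4, all control immunoprecipitates on lane 6). It is also partly confounded with training in the control inputs and the cKI immunoprecipitates, so these cannot be fully told apart. With no filter on low counts 123 genes passed by training and 112 in controls in immunoprecipitates, and 0 neighbours by genotype. A threshold of 0.5 for a shared step left 35 genes.

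With a replicate block the genotype contrast gave 292 genes (0 neighbours) in inputs and 467 (4 pathway genes) in immunoprecipitates, and training 87 in inputs. The block ended the calls of Camkk2 (edgeR adjusted p = 0.08), Emcn (0.077), Cisd2 (0.083) and Ddit4l (0.068) and no other call of a named gene; between fractions, with the mouse as block, Wdfy1 was -0.30, Manba -0.98, Banp 0.27 and Adipor2 -0.81.

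With single libraries left out, genotype gave 164 to 741 genes in inputs (1 to 5 pathway genes, 0 to 4 neighbours) and 52 to 395 in immunoprecipitates (1 to 3 and 0 to 1). Training gave 44 to 176 and 18 to 82, and the control contrast 33 to 154 (1 to 9 near Manba) and 9 to 87 (0 to 2). The ends came without conditioned cKI 2 and naive control 2 (genotype, inputs), and naive control 2 and 1 (genotype, immunoprecipitates). Shared steps ran from 0.53 to 0.56 for Wdfy1, 0.39 to 0.54 for Manba, 0 to 0.22 for Banp (0.22 without naive control 2) and 0 to 0.03 for Adipor2, with 98 to 110 genes above 0.25. Between fractions Wdfy1 ran from -0.34 to -0.27, Manba from -1.02 to -0.94, Banp from 0.21 to 0.3 and Adipor2 from -0.86 to -0.79. No value changed direction under any alternative. Depth limits Dkk2 and Manba in immunoprecipitates, where single libraries gave 3 and 51 counts.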
